A study of Arabidopsis thaliana with 8 samples.

Results

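Of 33602 Arabidopsis genes counted in roots, 38 were near the bottom of the measurable range after 4 h of mebendazole and clearly measurable without it. A gene belonged to this group when its level was below 1 CPM, the gene's count scaled to the library total, in each of 4 mebendazole libraries and at least 2 CPM in each of 4 solvent libraries. The ratio of group means, DMSO over mebendazole with 0.05 CPM added to both, also had to be at least 3. The libraries came from roots of 14-day-old Col-0 seedlings, the standard laboratory strain, for which the labels name no mutation or transgene. Seedlings raised on plates with the solvent dimethyl sulfoxide (DMSO) were moved for 4 h to plates with DMSO and 10 µM mebendazole (MBZ; 4 libraries) or to DMSO alone (4 libraries). Mebendazole is a benzimidazole that binds tubulin in parasitic worms. The comparison shows which weakly expressed root transcripts were below that limit within hours of exposure.

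"Silenced" is stronger than the counts allow. All 38 genes had at least 1 count in every MBZ library, and 33 had over 3 counts in every one. Their mean levels were 0.0360 to 0.843 CPM in MBZ libraries, with a median of 0.537, and 2.21 to 19.6 CPM in DMSO libraries, with a median of 3.11. They were already weakly expressed in solvent: the median DMSO mean of the 20867 genes that passed the count filter was 17.5 CPM, and 34 of the 38 had a DMSO mean under 6 CPM. Summed over the 38 genes, transcripts took 18.8 ± 0.741 CPM in MBZ libraries and 157 ± 1.42 CPM in DMSO libraries (SD, n = 4 each). These values chose the genes, so they describe the group and were not tested. In whole roots, fewer cells of a type and less RNA per cell cannot be told apart.

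All 38 genes encode proteins, and their descriptions span many functions. By their RefSeq descriptions they fall into 5 cell wall genes, 3 light-harvesting genes, 4 membrane transporters, 6 oxidoreductases, 1 defence gene, 2 described as kinases, 7 other enzymes, 6 other named proteins and 4 of no known function. Light-harvesting proteins hold the chlorophyll that captures light in thylakoid membranes, and their genes are known for control by light and the circadian clock. Pectin is the gel-like polysaccharide between cellulose fibres of the wall. Its stiffness is set by methylesterases and their inhibitors, and it is cut by polygalacturonases and lyases. No description named a transcription factor, although AT1G64625, described as a WNK-like kinase, carries the RefSeq synonym LONESOME HIGHWAY LIKE 3.

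**Figure D1:**
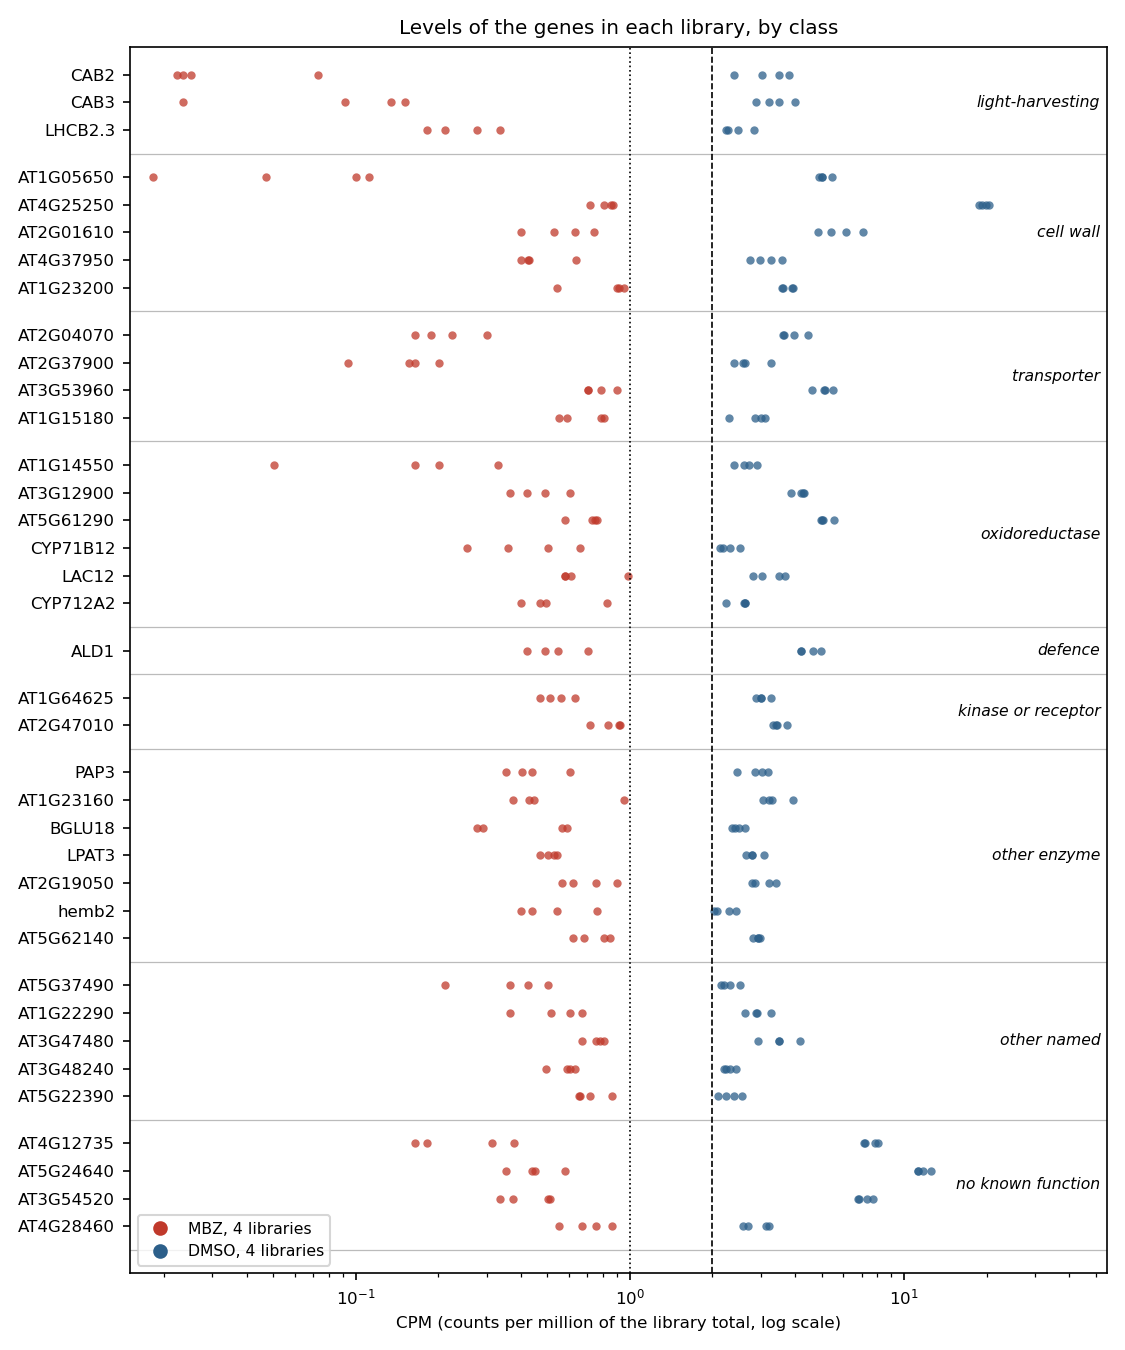
CPM of the genes described here in the 4 MBZ libraries (red) and the 4 DMSO libraries (blue) on a log axis, grouped by class. The dotted line is 1 CPM and the dashed line 2 CPM, the limits of the rule; CAB2, CAB3 and AT1G05650 lie farthest to the left in MBZ.

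The size of the gap varied widely within the group. The ratio of group means (DMSO over MBZ) had a median of 5.80, was at least 10 for 11 genes, and ran from 3.07 for AT5G22390 to 43.1 for AT1G05650. By class, the median ratio was 23.0 for the light-harvesting genes, 19.1 for those of no known function, 9.92 for transporters, 9.50 for cell wall genes, 5.83 for oxidoreductases, 5.12 for other enzymes and 4.76 for other named proteins. On the RPKM scale, which accounts for gene length, DMSO means ran from 1.19 for BGLU18 to 24.2 for AT4G25250, and AT5G24640 (24.1) and AT4G12735 (14.6) were the next highest. For background, 33.6% of the 20867 genes tested were lower in MBZ by edgeR's quasi-likelihood test at a Benjamini-Hochberg adjusted p of 0.05, 3.9% were lower by at least 2-fold as well, and in 31.5% every MBZ library was below every DMSO library. In the 38 genes every MBZ library was below every DMSO library because the rule required it.

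Chlorophyll a/b-binding protein genes showed some of the widest gaps. CAB2 (AT1G29920), which encodes an antenna protein of photosystem II and whose promoter is a classic reporter of the plant clock, had 0.0730, 0.0235, 0.0224 and 0.0251 CPM in MBZ libraries 1 to 4, against 3.04, 3.51, 2.41 and 3.81 CPM in DMSO libraries 1 to 4. This is 7 reads in all MBZ libraries, against 601 in all DMSO libraries, and MBZ library 1 held 4 of the 7. CAB3 (AT1G29910), its neighbour on chromosome 1, had 0.0912, 0.0235, 0.134 and 0.151 CPM in MBZ, against 3.99, 3.21, 3.51 and 2.89 CPM in DMSO. LHCB2.3 (AT3G27690), another photosystem II antenna gene, had 0.182, 0.212, 0.336 and 0.276 CPM in MBZ, against 2.85, 2.27, 2.24 and 2.47 CPM in DMSO. Separate groups were required by the rule, so the gaps only describe these 3 genes. The lowest DMSO library was 33.0 times the highest MBZ library for CAB2, 19.2 times for CAB3 and 6.67 times for LHCB2.3. With so few MBZ reads the depth-scaled ratio of summed counts, DMSO over MBZ, is imprecise. It was 81.5 for CAB2 (95% interval for counting error 39.3 to 204), 34.7 for CAB3 (21.8 to 58.9) and 9.92 for LHCB2.3 (7.30 to 13.8).

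CAB2 and CAB3 encode identical proteins (100% identity), but they do not share their upstream sequence: in a global alignment of the 250 bases before each start, 152 of 289 aligned positions (52.6%) were the same. The upstream windows of the 3 light-harvesting genes are shown because their transcripts moved together. They were read from the RefSeq genome, build TAIR10.1, and run 5′ to 3′ on the gene's own strand. CAB2 is at chr1:10475970-10476219 (minus strand), CAB3 at chr1:10473503-10473752 (minus strand) and LHCB2.3 at chr3:10255656-10255905 (plus strand). Capitals mark a G-box, CACGTG, a core sequence bound by bZIP and bHLH factors in light-responsive promoters, whose first base is at -88 relative to the LHCB2.3 start.
CAB2: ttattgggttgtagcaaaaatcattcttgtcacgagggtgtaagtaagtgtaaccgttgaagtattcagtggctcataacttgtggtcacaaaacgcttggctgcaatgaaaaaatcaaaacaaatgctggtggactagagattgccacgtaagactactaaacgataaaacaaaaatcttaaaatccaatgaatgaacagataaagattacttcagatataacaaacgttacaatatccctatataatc
CAB3: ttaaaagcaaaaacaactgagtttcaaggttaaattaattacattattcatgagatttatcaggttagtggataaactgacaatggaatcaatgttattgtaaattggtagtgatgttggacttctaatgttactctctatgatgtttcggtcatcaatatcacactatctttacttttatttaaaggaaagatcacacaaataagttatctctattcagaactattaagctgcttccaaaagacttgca
LHCB2.3: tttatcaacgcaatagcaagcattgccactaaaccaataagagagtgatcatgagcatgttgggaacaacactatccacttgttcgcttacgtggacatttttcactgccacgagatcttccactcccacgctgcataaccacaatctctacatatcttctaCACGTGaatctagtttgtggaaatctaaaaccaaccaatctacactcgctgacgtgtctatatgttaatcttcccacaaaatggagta
No capitals appear in the CAB2 and CAB3 windows because none of the 7 motifs searched, listed further on, is spelled there.

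The reads that can be assigned to CAB2 and CAB3 may depend on 3 close relatives, which were compared by protein and not by transcript sequence. CAB1 (99.6% protein identity to CAB2), LHB1B2 (97.0%) and LHB1B1 (95.1%) are not among the 38. LHB1B1 missed the DMSO limit with 1.81 CPM in its lowest DMSO library, and had 3, 0, 3 and 0 counts in the MBZ libraries, against 125, 89, 109 and 77 counts in the DMSO libraries. CAB1 had 6.51 ± 0.607 CPM in MBZ libraries and 20.7 ± 1.10 CPM in DMSO libraries (SD, n = 4 each; edgeR log2 fold change -1.64 with an SE of 0.06, adjusted p 8.24e-45). LHB1B2 had 75.6 ± 1.94 CPM in MBZ libraries and 93.7 ± 3.33 CPM in DMSO libraries, a log2 fold change of -0.29 (edgeR adjusted p 4.56e-20). Summed over these 5 genes the level was 82.3 ± 1.29 CPM in MBZ libraries and 123 ± 4.31 CPM in DMSO libraries, a log2 ratio of -0.58, against -5.24 for CAB2 alone. LHB1B2 made up most of both sums, so the summed ratio mainly reflects that gene. Most transcript of this near-identical family was therefore still present. The division of reads within the family is uncertain because the counting rule for shared reads is not given in the sources used here.

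**Figure D2:**
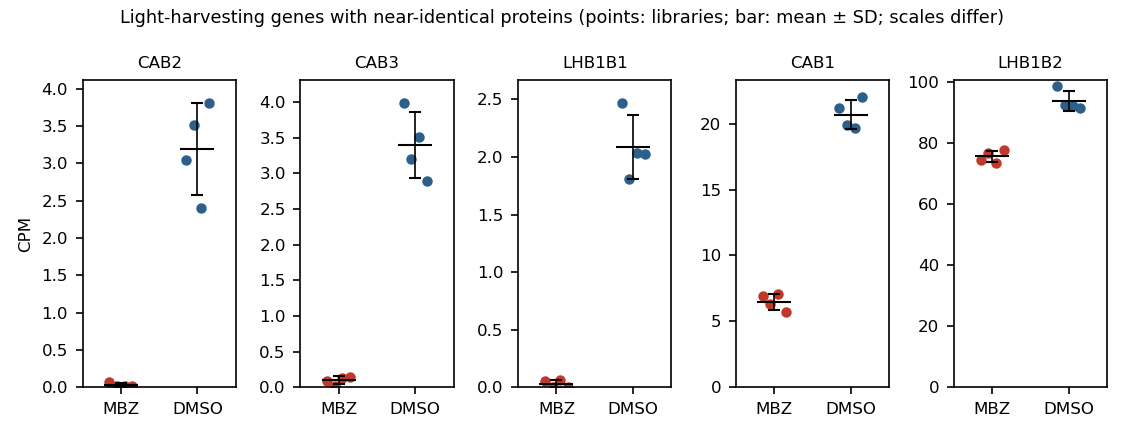
CPM of CAB2, CAB3 and 3 near-identical relatives in each MBZ (left) and DMSO (right) library, with mean ± SD; each panel has its own scale starting at 0. CAB2, CAB3 and LHB1B1 are close to 0 in MBZ, while LHB1B2 averages 75.6 CPM in MBZ and 93.7 CPM in DMSO.

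The rest of the photosynthesis genes also fell, mostly by less. A list of 47 light-harvesting, photosystem and Rubisco small subunit genes held 42 tested genes besides the 3 described above. Of these 42, edgeR placed 40 lower, 1 higher and 1 not past the threshold, beside 33.6% lower and 32.9% higher over all genes tested. Their median log2 fold change was -0.58, while the median over all genes tested was 0.00. Falls of at least 2-fold were found for 10, including LHCB2.2 (-4.71 ± 0.38), LHCB2.1 (-3.83 ± 0.24), RBCS3B (-3.65 ± 0.30) and the oxygen-evolving complex gene PSBQ-2 (-1.53 ± 0.09; log2 fold changes with SE, which can be too small where MBZ libraries hold few reads). RBCS2B, a Rubisco small subunit gene, had at most 1 count in any MBZ library and 24 to 37 counts in DMSO libraries. PSBO1, a subunit of the oxygen-evolving complex, had 55.7 ± 1.29 CPM in MBZ libraries and 89.4 ± 2.56 CPM in DMSO libraries, and LHCA4, a photosystem I antenna gene, 62.6 ± 1.04 CPM in MBZ libraries and 94.7 ± 1.90 CPM in DMSO libraries. The exception was the photosystem I antenna gene Lhca5, which was higher, with 9.49 ± 0.962 CPM in MBZ libraries and 3.46 ± 0.206 CPM in DMSO libraries (log2 fold change 1.48 ± 0.08, edgeR adjusted p 2.52e-31). LHCB4.3 did not pass (log2 fold change -0.25, edgeR adjusted p 0.138). These genes also mark green tissue: over 44 of them, leaving out the 3 of the rule, the summed level was 557 to 571 CPM in MBZ libraries and 799 to 827 CPM in DMSO libraries, with none at 0 in all libraries. How far green tissue in the root samples contributed was not tested.

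**Figure D3:**
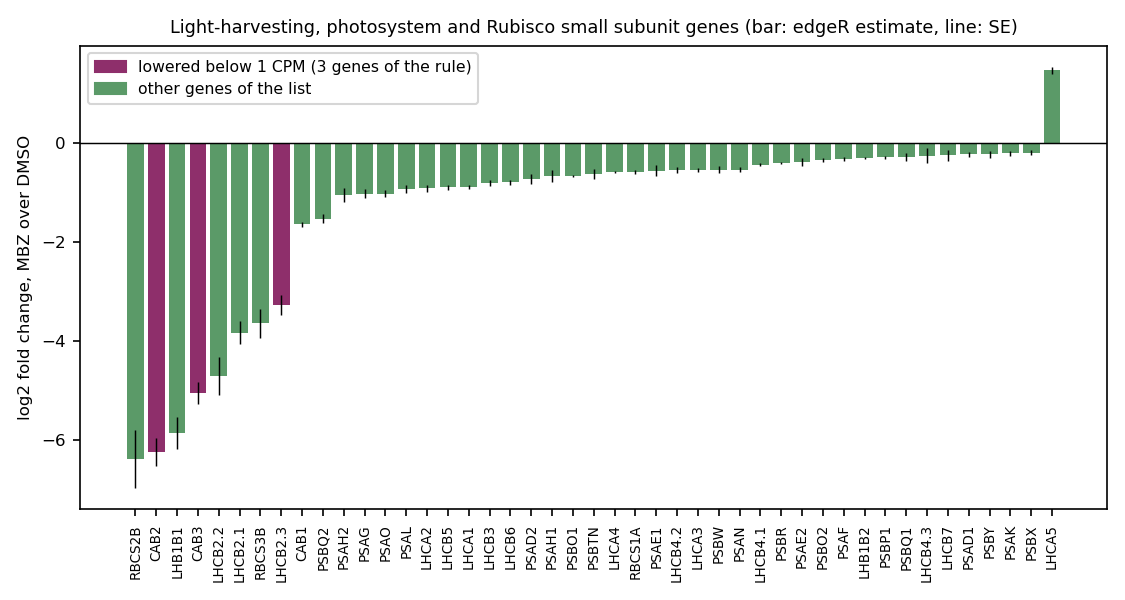
log2 fold change (MBZ over DMSO) with SE for the 45 tested light-harvesting, photosystem and Rubisco small subunit genes. The genes of the rule (purple) stand beside RBCS2B, LHB1B1, LHCB2.2, LHCB2.1 and RBCS3B, the others are nearer to 0, and Lhca5 (LHCA5 on the axis) alone is above 0.

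Clock genes moved in both directions. Of 25 clock genes, none of them among the 38, edgeR placed 9 (36%) lower, 13 (52%) higher and 3 not past the threshold. Over all genes tested 33.6% were lower, near the share of the clock genes, and 32.9% higher. The median log2 fold change of the clock genes was 0.10. The morning genes LHY and CCA1, whose proteins repress evening genes, were both lower. LHY had 1.64 ± 0.330 CPM in MBZ libraries and 17.8 ± 0.234 CPM in DMSO libraries, and CCA1 had 1.61 ± 0.192 CPM in MBZ libraries and 12.3 ± 0.557 CPM in DMSO libraries. The evening gene ELF4 was higher, with 93.9 ± 2.05 CPM in MBZ libraries and 10.2 ± 0.474 CPM in DMSO libraries, as was FKF1, which encodes a blue-light receptor F-box protein, with 22.2 ± 0.520 CPM in MBZ libraries and 4.90 ± 0.402 CPM in DMSO libraries. TOC1, a repressor that acts in the evening, had 251, 250, 249 and 247 CPM in MBZ, against 88.9, 88.8, 91.1 and 89.2 CPM in DMSO. The hour at which each group was harvested is not in the labels. Drug and hour of sampling therefore cannot be told apart for these genes, the photosynthesis genes or the 38 genes.

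Cell wall genes held the highest ratio of group means with 0.05 CPM added (AT1G05650, 43.1, beside 37.7 for CAB2), while the depth-scaled ratio of summed counts was higher for CAB2. AT1G05650, which encodes a pectin lyase-like superfamily protein, had 0.0182, 0.0470, 0.112 and 0.10 CPM in MBZ libraries 1 to 4, against 5.45, 5.01, 5.0 and 4.92 CPM in DMSO libraries. It was read 12 times in all MBZ libraries and 978 times in all DMSO libraries, a depth-scaled ratio of 77.4 (95% interval 44.1 to 150). AT4G25250, a gene of the invertase and pectin methylesterase inhibitor superfamily, had 0.803, 0.870, 0.716 and 0.854 CPM in MBZ, against 19.9, 19.2, 18.8 and 20.3 CPM in DMSO. The libraries of a group agreed closely for AT4G25250. Its groups, separate by the rule, were 21.6-fold apart at their nearest. Another gene of that superfamily, AT2G01610, had 0.529, 0.400, 0.738 and 0.628 CPM in MBZ, against 6.13, 5.44, 4.87 and 7.07 CPM in DMSO. The remaining pair were AT4G37950, a rhamnogalacturonate lyase family gene, with a ratio of 6.12 (DMSO over MBZ), and AT1G23200, described in the same superfamily as AT4G25250, with 4.36. The AT1G23200 protein has 554 residues, beside 199 for AT4G25250, and the shared description does not show that it is an inhibitor. The windows before the AT1G05650 and AT4G25250 starts are shown because these genes had the widest gaps of this class. They are chr1:1692180-1692429 (minus strand) and chr4:12934312-12934561 (plus strand) in TAIR10.1. Capitals mark the I-box, GATAAG or its reverse complement CTTATC, whose first base is at -112 relative to the AT1G05650 start and at -236 relative to the AT4G25250 start.
AT1G05650: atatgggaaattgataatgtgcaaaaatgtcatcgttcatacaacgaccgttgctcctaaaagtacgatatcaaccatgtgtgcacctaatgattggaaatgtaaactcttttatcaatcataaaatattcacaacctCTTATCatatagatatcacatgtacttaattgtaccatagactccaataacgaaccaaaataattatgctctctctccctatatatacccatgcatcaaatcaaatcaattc
AT4G25250: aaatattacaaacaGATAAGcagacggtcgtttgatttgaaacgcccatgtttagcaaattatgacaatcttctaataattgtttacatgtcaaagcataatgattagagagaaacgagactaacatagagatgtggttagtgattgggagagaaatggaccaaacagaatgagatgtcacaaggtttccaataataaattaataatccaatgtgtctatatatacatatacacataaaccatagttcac
The I-box is a motif of light-regulated promoters, and a match in these letters is not evidence of binding.

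Other pectin-related genes and the expansins were also lower more often than higher. Among 114 tested genes, beside 4 of the 38, whose description names a pectin-degrading enzyme (a wording that also catches inhibitor families), 62 were lower, 25 higher and 27 not past the threshold, with a median log2 fold change of -0.28. AT4G24780, a gene with such a description, had 38 ± 0.657 CPM in MBZ libraries and 167 ± 3.46 CPM in DMSO libraries, and the polygalacturonase gene PG2 had 53.0 ± 1.43 CPM in MBZ libraries and 124 ± 2.64 CPM in DMSO libraries. PME3, a pectin methylesterase gene, was higher, with 566 ± 8.58 CPM in MBZ libraries and 315 ± 6.96 CPM in DMSO libraries. Of 24 tested expansins, proteins that loosen walls without cutting them, 16 were lower, 5 higher and 3 not past the threshold, and the median was -0.57. EXPA17 had 1.2 ± 0.301 CPM in MBZ libraries and 13.6 ± 0.752 CPM in DMSO libraries, EXPB1 4.00 ± 0.220 CPM in MBZ libraries and 30.9 ± 0.602 CPM in DMSO libraries. EXPA12 went the other way, with 4.90 ± 0.263 CPM in MBZ libraries and 0.273 ± 0.106 CPM in DMSO libraries. Beside these lists, 33.6% of all tested genes were lower and 32.9% higher.

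The 4 transporter genes belong to a pair of large families. AT2G04070, a MATE efflux gene (proteins that export metabolites and toxins in exchange for protons), had 0.164, 0.188, 0.224 and 0.301 CPM in MBZ, against 4.47, 3.98, 3.64 and 3.63 CPM in DMSO. AT2G37900, of the major facilitator superfamily, had 0.164, 0.0940, 0.157 and 0.201 CPM in MBZ, against 3.26, 2.64, 2.59 and 2.39 CPM in DMSO. Its closest paralog AT3G53960 (76.9% protein identity), also one of the 38, had 0.784, 0.705, 0.895 and 0.703 CPM in MBZ, against 4.60, 5.11, 5.49 and 5.15 CPM in DMSO. By the rule, all MBZ libraries of these 3 genes were below 1 CPM and all DMSO libraries at least 2 CPM. The other MATE gene, AT1G15180, had a ratio of 3.91. The rest of both families went both ways. Of 43 other tested MATE genes 21 (48.8%) were lower and 17 (39.5%) higher, with a median log2 fold change of -0.10. Of 101 other tested major facilitator genes 54 (53.5%) were lower and 24 (23.8%) higher, with a median of -0.17. Over all genes tested 33.6% were lower and 32.9% higher.

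Oxidoreductases were a mixed set of single genes. AT1G14550, a peroxidase superfamily gene, had 0.164, 0.329, 0.201 and 0.0502 CPM in MBZ, against 2.91, 2.39, 2.72 and 2.60 CPM in DMSO. AT3G12900, a 2-oxoglutarate and iron-dependent oxygenase gene, had 0.365, 0.423, 0.492 and 0.603 CPM in MBZ, against 4.33, 3.85, 4.2 and 4.28 CPM in DMSO. AT5G61290, a flavin-binding monooxygenase gene, had 0.748, 0.729, 0.761 and 0.578 CPM in MBZ, against 5.04, 5.07, 4.98 and 5.55 CPM in DMSO. The groups, separate by the rule, lay at least 6.39-fold apart for these 3. The cytochrome P450 genes CYP71B12 and CYP712A2 had ratios of 4.74 and 4.31, and LAC12, a laccase of the kind that couples lignin precursors, had 4.47.

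ALD1 was the gene classed under defence, by its RefSeq description. Its product, an aminotransferase, starts the synthesis of pipecolic acid, a signal of systemic acquired resistance. ALD1 had 0.547, 0.423, 0.492 and 0.703 CPM in MBZ, against 4.21, 4.67, 4.22 and 4.97 CPM in DMSO. FMO1, which hydroxylates pipecolic acid and was looked at after its values were seen, was lower too (0.270 ± 0.0504 CPM in MBZ libraries and 0.882 ± 0.127 CPM in DMSO libraries; edgeR adjusted p 1.52e-08). The ALD1 window, chr2:5768167-5768416 (plus strand) in TAIR10.1, is given as that of the single defence gene, with the letters TATAAA in capitals.
ALD1: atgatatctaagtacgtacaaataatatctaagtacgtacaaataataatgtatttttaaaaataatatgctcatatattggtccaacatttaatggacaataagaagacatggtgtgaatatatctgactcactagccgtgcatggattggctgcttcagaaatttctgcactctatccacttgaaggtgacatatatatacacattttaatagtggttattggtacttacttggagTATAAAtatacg
The first base of the match is at -12 relative to the annotated start.

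Enzymes outside these classes showed smaller gaps, with ratios from 3.75 to 5.89. PAP3, a purple acid phosphatase gene, had 0.438, 0.353, 0.403 and 0.603 CPM in MBZ, against 3.04, 2.45, 3.19 and 2.87 CPM in DMSO. AT1G23160, of the GH3 family whose enzymes join amino acids to hormones and other acids, had 0.949, 0.376, 0.447 and 0.427 CPM in MBZ, against 3.06, 3.21, 3.94 and 3.29 CPM in DMSO. BGLU18, which releases abscisic acid from its glucose ester, had 0.565, 0.588, 0.291 and 0.276 CPM in MBZ, against 2.51, 2.64, 2.35 and 2.42 CPM in DMSO. MBZ library 1 stood above the other MBZ libraries for AT1G23160 and was, as the rule required, below every DMSO library. The other enzyme genes were LPAT3, a lysophosphatidyl acyltransferase of phospholipid synthesis, the GDSL-type gene AT2G19050, hemb2, a paralog of the tetrapyrrole synthesis gene HEMB1, and AT5G62140, described as a Clp protease subunit. AT1G64625 and AT2G47010, described as kinases, had ratios of 5.22 and 3.95. For AT1G64625 the synonym given above leaves this description in doubt.

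Among other named proteins, AT5G37490, an ARM repeat gene, had 0.365, 0.212, 0.425 and 0.502 CPM in MBZ, against 2.53, 2.21, 2.15 and 2.31 CPM in DMSO. AT1G22290, a 14-3-3 family gene, had 0.365, 0.517, 0.671 and 0.603 CPM in MBZ, against 2.89, 2.64, 3.27 and 2.92 CPM in DMSO. The MBZ and DMSO libraries did not overlap for either gene, as the rule required. The calcium-binding-type gene AT3G47480, the PB1-domain gene AT3G48240 and the FANTASTIC FOUR-like gene AT5G22390 had ratios of 4.47, 3.74 and 3.07; the examples of this class given here leave out its highest ratio.

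The genes classed as of no known function, which RefSeq describes only as uncharacterized proteins, included some of the highest of the 38 in solvent. AT4G12735, which encodes a protein of 60 residues, the shortest of the set, had 0.182, 0.165, 0.313 and 0.377 CPM in MBZ, against 7.21, 7.81, 8.06 and 7.15 CPM in DMSO. AT5G24640 had 0.438, 0.353, 0.582 and 0.452 CPM in MBZ, against 11.3, 11.7, 12.5 and 11.2 CPM in DMSO. AT3G54520 had 0.511, 0.376, 0.336 and 0.502 CPM in MBZ, against 6.78, 7.73, 7.35 and 6.86 CPM in DMSO. The rule required separate groups, so the gaps only describe these genes. In each of them the nearest libraries of the groups differed at least 13.3-fold. AT4G28460, the last of the class, had a ratio of 3.90, and a RefSeq note places its product in the endomembrane system.

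Closest paralogs were compared with the 38 genes pair by pair. A paralog with at least 40% protein identity over at least 70% of the gene's protein was found for 32 of the 38, next to the gene on the chromosome in 10 cases. Leaving out paralogs that belong to the 38, 26 were tested. By edgeR 16 (61.5%) of these were lower, 6 (23.1%) higher and 4 not past the threshold, with a median log2 fold change of -0.26. Over all genes tested 33.6% were lower and 32.9% higher, and 3.9% were lower by at least 2-fold. Of the 26 paralogs, 20 changed by less than 2-fold. The paralogs were the more abundant copy in 22 of 26 pairs by DMSO CPM, which is not corrected for gene length. The rule selected weakly expressed genes (median DMSO mean 3.11 CPM, beside 17.5 CPM over tested genes), which favours the paralog in this count.

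A fall of at least 2-fold in the paralog was found for 6 genes. AT3G54530, beside AT3G54520, had 1.21 ± 0.129 CPM in MBZ libraries and 19.8 ± 1.04 CPM in DMSO libraries. PER4, a peroxidase gene beside AT1G14550, had 1.53 ± 0.240 CPM in MBZ libraries and 17.2 ± 1.23 CPM in DMSO libraries. AT1G05660, beside AT1G05650 and 89.1% identical to it in protein, had 2.52 ± 0.119 CPM in MBZ libraries and 18.2 ± 0.873 CPM in DMSO libraries. Those 3 are tandem neighbours, while AT2G41730, the 89.1% identical relative of AT5G24640, lies on another chromosome and had 3.29 ± 0.480 CPM in MBZ libraries and 37.8 ± 1.23 CPM in DMSO libraries. LHCB2.2, relative of LHCB2.3, and PBS3, a GH3 gene of salicylic acid synthesis related to AT1G23160, complete the 6, with log2 fold changes of -4.71 and -1.45.

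In other pairs one copy fell below 1 CPM beside a relative that was higher or little changed. AT2G04080, the tandem MATE neighbour of AT2G04070 with 85.1% identity, was higher by 0.45 on the log2 scale (edgeR adjusted p 0.0293), and AT1G15170, 89.6% identical to AT1G15180, by 0.70 (1.32e-22). AT1G55290, relative of AT3G12900, was higher by 0.88, AT1G14890, relative of AT2G01610, by 0.42, PAP8, relative of PAP3, by 0.19 and HEMB1, relative of hemb2, by 0.15. CYP71B11, in tandem with CYP71B12 and 90.9% identical, moved little, with log2 fold change -0.15, SE 0.06 and an edgeR adjusted p of 0.0232. GRF10, the tandem 14-3-3 relative of AT1G22290, had 454 ± 3.79 CPM in MBZ libraries and 462 ± 7.12 CPM in DMSO libraries (log2 fold change -0.01, edgeR adjusted p 0.643). LAC5, CMPG1 and AT1G17030, relatives of LAC12, AT5G37490 and AT2G47010, did not pass the threshold either, with log2 fold changes of -0.05, -0.05 and -0.14. Reads shared between such relatives may be split either way.

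**Figure D4:**
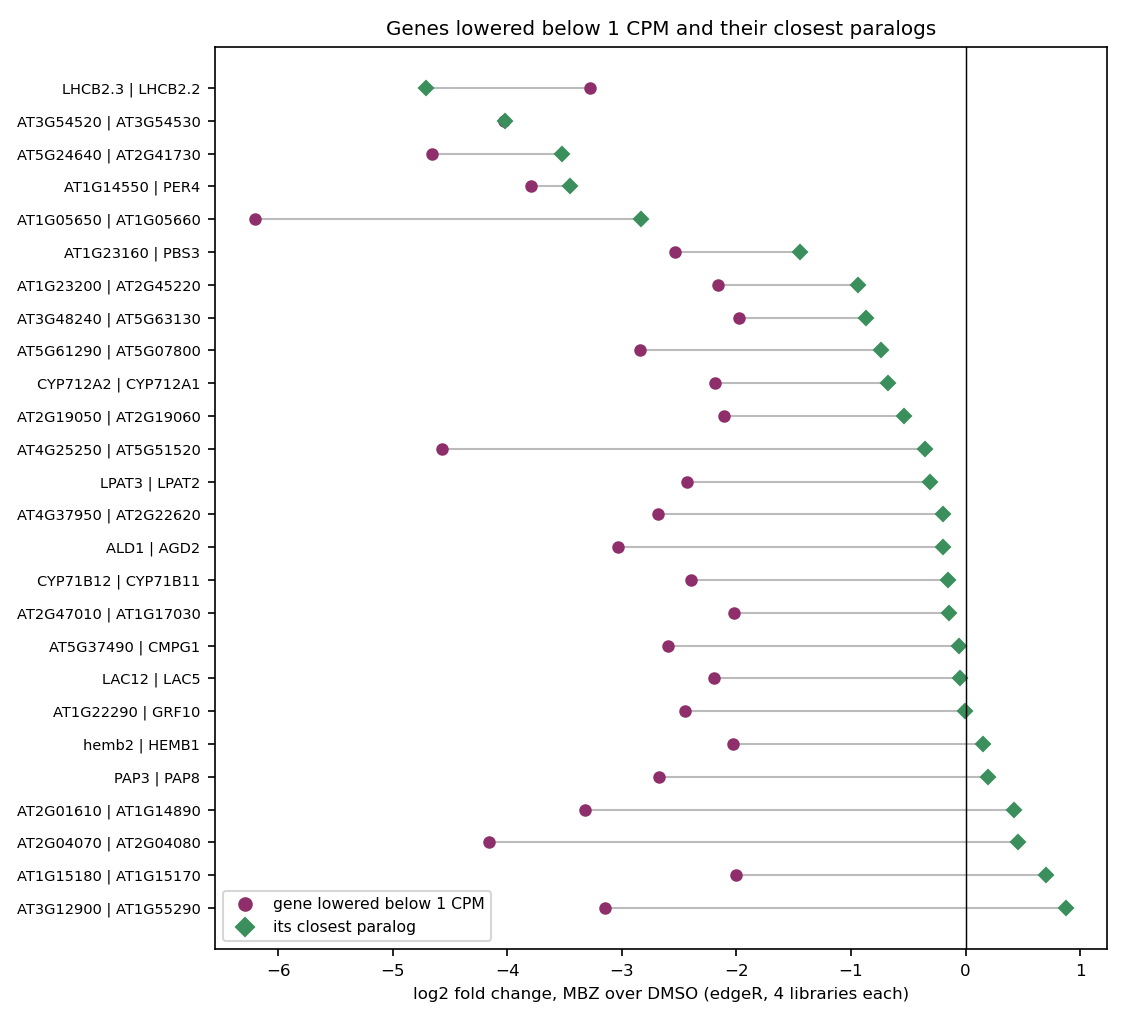
log2 fold change (MBZ over DMSO, edgeR) of 26 genes of the rule (purple circles) and of the closest paralog of each (green diamonds), ordered by the paralog's value. The paralogs spread from -4.71 for LHCB2.2 to 0.88 for AT1G55290, and 20 of them lie within 2-fold of no change.

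Genes next to the 38 on the chromosome were also counted. Of 58 tested neighbours outside the group, 35 (60.3%) were lower, 10 (17.2%) higher and 13 not past the threshold. Over all genes tested 33.6% were lower and 32.9% higher. The neighbours had a median log2 fold change of -0.16. A fall of at least 2-fold was found for 9, which include the tandem paralogs AT1G05660, PER4 and AT3G54530, CAB1, and AT4G25260 beside AT4G25250 (6.72 CPM in MBZ libraries and 17.8 CPM in DMSO libraries). The other 4 were ILL6 beside hemb2 (log2 fold change -1.57 ± 0.08), CAD6 beside AT4G37950 (-1.71 ± 0.12), CYP93D1 beside CYP712A2 (-2.12 ± 0.13) and AT3G54510, another neighbour of AT3G54520 (-1.16 ± 0.22).

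**Figure D5:**
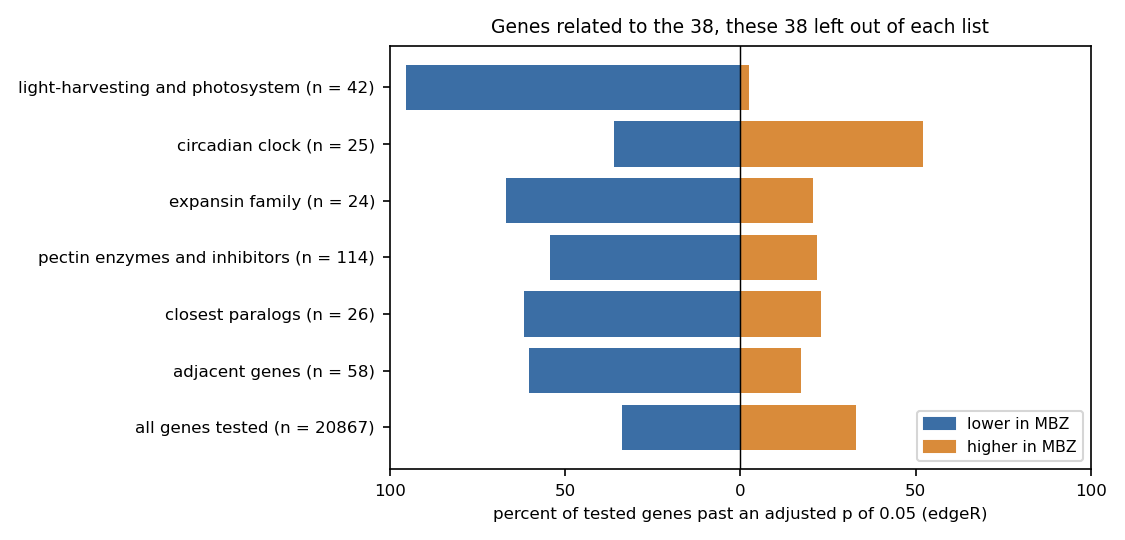
Percent of tested genes lower (left, blue) and higher (right, orange) in MBZ at an edgeR adjusted p of 0.05, for 4 gene lists, the closest paralogs and the adjacent genes, each without the 38 genes, and for all genes tested. Among the photosynthesis genes 95.2% are lower, clock genes are 36% lower and 52% higher, and over all tested genes 33.6% are lower and 32.9% higher.

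Features that the rule did not use were compared as descriptions. A RefSeq note places 10 of the 38 products (26.3%) in the endomembrane system, beside 10.4% of the 20256 tested genes that have a note. The median protein had 371 residues, beside 387 for tested genes. Chromosome 1 holds 13 of the 38 (34.2%), beside 26.3% of tested genes. Promoters of 250 bases before to 50 after the start were searched on both strands for 7 motifs. The W-box TTGACC was found in 8 of 38 (21.1%, exact 95% interval 9.55 to 37.3), beside 14.1% of all 26711 promoters, the G-box CACGTG in 5 (13.2%) beside 7.79%, the I-box GATAAG in 7 (18.4%) beside 14.6%, and TATAAA in 22 (57.9%) beside 52.6%. The auxin response element TGTCTC was found in 5 (13.2%) beside 14.2%, and the evening element AAAATATCT and the GCC box GCCGCC in 1 each (2.63%) beside 2.86% and 2.55%. The GCC box was in AT4G12735. The share over all promoters lay inside the interval of the members' share for each of the 7 motifs, so no difference was detectable with 38 promoters.

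The limits of the rule cut through a continuous range. Just inside the DMSO limit were hemb2, with 2.02 CPM in its lowest DMSO library, and AT5G22390, with 2.09. Just outside were PEPC1 (1.99 CPM), the myo-inositol oxygenase gene MIOX4 (1.97), AT5G41380 (1.89), AT1G23110 (1.85) and LHB1B1. Just inside the MBZ limit were LAC12, with 0.985 CPM in its highest MBZ library, and AT1G23200, with 0.955. Just outside were AT4G09110 (1.0 CPM), AT1G52560 (1.03), the berberine-bridge-type gene AT1G26420 (1.05), the pectin lyase-like gene AT1G48100 (1.06) and the transcription factor gene WRKY8 (1.06). The DMSO limit alone kept out 124 genes, the MBZ limit alone 133 and the ratio alone 0. With the groups exchanged in the rule, 54 genes met it.

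Library totals ran from 39807931 to 54818801 counts in MBZ and from 38042437 to 53588168 in DMSO, so 3 counts, the floor used here, were 0.0547 to 0.0789 CPM; intervals and floors cover counting error only. The 38 genes had their highest MBZ value in libraries 1 to 4 in 8, 8, 10 and 12 cases, and their highest DMSO value in 12, 4, 13 and 9 cases. DMSO library 2 thus held 10.5% of these maxima, beside 23.2% over all tested genes, and DMSO library 3 held 34.2%, beside 26.5%. Root cell type markers moved in several directions: summed levels were 821 to 844 CPM in MBZ and 566 to 577 CPM in DMSO for 4 pericycle and lateral root founder markers (3 higher, 0 lower), 444 to 454 CPM in MBZ and 394 to 418 CPM in DMSO for 5 root hair markers (3 higher, 2 lower), and 359 to 367 CPM in MBZ and 428 to 443 CPM in DMSO for 6 xylem markers (0 higher, 4 lower). For 8 endodermis markers (1 higher, 6 lower) the sums were 286 to 299 CPM in MBZ and 313 to 317 CPM in DMSO, for 2 non-hair epidermis markers (both lower) 17.5 to 19.5 CPM in MBZ and 27.7 to 29.5 CPM in DMSO. For 3 phloem markers (1 higher, 1 lower) they were 198 to 210 CPM in MBZ and 214 to 226 CPM in DMSO, and for 3 root cap markers (1 higher, 2 lower) 13.8 to 14.6 CPM in MBZ and 14.8 to 17.4 CPM in DMSO. Of 3 stem cell niche markers 2 were higher and 0 lower, the 1 cortex marker was lower, and no marker was at 0 in all libraries. Over all genes tested 33.6% were lower and 32.9% higher, so counts from so few markers show no shift of a cell type by themselves. The part of marker changes in the falls of the 38 genes was not tested.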

How the data were processed

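RNA from roots was measured in 8 libraries, 4 MBZ and 4 DMSO, grouped by sample titles; the count columns of the MBZ samples carry another name that matches those samples' descriptions. The labels do not say that replicates were separate cultures, so p-values concern the spread between these libraries, which may be technical. The authors deposited raw counts per gene for 33602 genes and RPKM for 17872 genes; the submitters' processing notes name STAR 2.7.0a, edgeR 3.36.0 and TAIR10. The program and strand setting used for counting are not given in the sources used here, so reads of near-identical or overlapping genes may be split, and those of a gene and its antisense partner cannot be told apart. No column of per-sample values was left out (0 columns).

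From the deposited counts, CPM over column totals was computed and the rule applied. Members, lists and tests were chosen with earlier results of these data known, and classes were assigned by hand from RefSeq descriptions. Background tests used edgeR 4.0.16 (R 4.3.3) quasi-likelihood with TMM and filterByExpr (20867 genes) on all libraries, with Benjamini-Hochberg adjustment and a threshold of 0.05. The same fit was run on simulated counts with known fold changes, whose outcome is not given here. Alternatives used DESeq2 1.42.0 and limma 3.58.1 on log2(RPKM + 1). Paralogs came from blastp 2.17.0+ on RefSeq proteins, of which the best bit score was kept; promoters came from the RefSeq TAIR10.1 genome, and all 38 genes matched. Depth-scaled ratios have 95% counting intervals. Values in every library were printed for the 12 highest ratios, the 5 highest DMSO means and up to 3 genes per class of 3 or more. Of each list some, but not all, of the genes with the smallest p in each direction were named. FKF1, EXPA17, the genes with large falls in the photosynthesis list and FMO1 were added after their values were seen. Equal replicate numbers did not pair the libraries. The values of 1 of the other named genes are not reported here.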

Additional observations from a re-analysis of the deposited data

Results flagged for a closer look

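In groups of 4 libraries, the gap of the highest or lowest library to its nearest neighbour, divided by the range, passed Dixon's 95% critical value in 12 of 134 groups (8.96%), where chance gives about 5%. Among the 38 genes this held in 7 of 76 groups. MBZ library 1 was highest for CAB2 (0.946), LAC12 (0.918), AT4G37950 (0.885) and AT1G23160 (0.875). MBZ library 2 was lowest for AT1G23200 (0.856), DMSO library 3 was lowest for CYP712A2 (0.918), and DMSO library 4 was highest for AT5G61290 (0.842). For CAB2 this means 4 counts in MBZ library 1 and 1 count in each of the others. Among genes outside the 38, DMSO library 1 was highest for LHCA4 (0.877) and PG2 (0.872), MBZ library 3 was lowest for LHCB5 (0.861), DMSO library 3 was highest for TOC1 (0.854) and MBZ library 2 was highest for EXPA18 (0.832).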

How the results depend on the processing

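The number of genes meeting the rule followed its limits: 74 with a DMSO minimum of 1 CPM, 14 with a minimum of 3 CPM, 9 with an MBZ maximum of 0.5 CPM and 25 with a ratio of at least 5. It was 38 with TMM-scaled library sizes, 37 with DESeq2 size factors, 39 over protein-coding totals, 28 with 0.5 CPM added, and 38 to 40 with each library left out in turn. The log2 ratio of each of the 38 genes kept its sign in all 12 alternatives. The rule left little room for another outcome, since it placed every MBZ library below every DMSO library. With 0.5 CPM added each ratio moved towards 0 by more than the replicate spread, by construction. With near-identical relatives summed, the log2 ratio was -0.58 in place of -5.24 for CAB2, and LHB1B2 made up most of that sum. Counts of lower genes stayed within 1.5 times under every alternative run: 37 to 41 for photosynthesis genes, 9 for the clock, 14 to 16 for expansins, 57 to 67 for pectin-related genes, 14 to 18 for paralogs and 32 to 37 for neighbours, and 6550 to 7821 over all genes. With replicate number as a block, 6968 genes were lower and 6818 higher, and 39 photosynthesis genes were lower. Deviations of equally numbered libraries did not correlate (-0.0433 to 0.0058). Such values over all tested genes give no sign of pairing but cannot exclude a shared batch. CAB2 and CAB3 had 1 to 6 counts per MBZ library, so depth limits the precision of their ratios.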
